A study of Mus musculus with 9 samples.

Results

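The transcripts of the tumour suppressor p53 and of 9 genes that regulate it or respond to it were followed in nuclei of neonatal mouse cardiomyocytes under volume overload. The 10 genes were Trp53, which encodes p53, the regulators Mdm2 and Mdm4, and Ccng1, Gtse1, Fas, Sesn1, Zmat3, Phlda3 and Trp53inp1, which are known p53 targets. They were chosen by gene symbol from the 41128 genes of the table, and all 10 were found. The rule uses names and no values, although the names were picked with earlier results of these data known.

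p53 is a transcription factor that is kept low in resting cells by MDM2, a ubiquitin ligase that marks it for degradation, and by MDM4, which binds it and blocks its activity. DNA damage and other stresses release p53 from both, so that its activity is set mainly at the level of the protein and can rise without more Trp53 mRNA. Active p53 then induces genes for cell-cycle arrest, apoptosis, DNA repair and metabolism, and Mdm2 itself, which closes a negative feedback loop. In the heart, cardiomyocytes leave the cell cycle soon after birth, and the p53 pathway is known as a brake on cell division and as a mediator of cell death under stress.

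Nuclear RNA was sequenced from PCM-1+ nuclei, sorted for a protein on the nuclear membrane of cardiomyocytes, from the left ventricle of 9 FVB mice aged 12 days. There were 3 cKO mice with a cardiac stress score of 1 (S1 to S3, labelled as left ventricular volume overload), 3 unstressed cKO mice (U1 to U3) and 3 control mice (C1 to C3). The cKO mice were Fstl1KO/fl;Tie2-Cre, with 1 Fstl1 allele knocked out in all cells and the other deleted by a Cre that is active in endothelial and endocardial cells. The control mice are labelled wildtype, and the methods of the study give them 1 floxed and 1 wildtype Fstl1 allele without Cre. Fstl1 itself had 97.4, 145 and 123 normalized counts in score 1 cKO mice, 69.6, 98.6 and 125 in unstressed cKO mice, and 124, 102 and 95.04 in control mice, so that its level in these nuclei overlapped between all groups and did not separate the genotypes. The stress score was assigned to each mouse from its heart-weight-to-body-weight ratio. The title of U3 calls it het cKO, whereas the genotype it is given matches U1 and U2. By the study's account all unstressed cKO mice were male, whereas the controls were female, and sex and genotype cannot be told apart between them.

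The libraries held 10805513 to 12698502 reads in score 1 cKO mice, 8804295 to 11341764 reads in unstressed cKO mice and 8262684 to 12597012 reads in control mice. Mitochondrial ribosomal RNA took 3.81% of the reads in S2 and 3.84% in U3, against 0.941 to 1.15% in the 7 other libraries. S3, C2 and C3 carry mouse numbers of another series than the 6 other mice, and no unstressed cKO mouse is among them. All 12 cardiomyocyte markers were detected, with a summed level of 2363570 to 3897280 normalized counts in score 1 cKO, 2855260 to 3016840 in unstressed cKO and 2770070 to 3688640 in control libraries. Markers of other cell types were present at much lower levels. The 11 endothelial markers summed to 1448 to 1809 normalized counts in score 1 cKO, 1329 to 1612 in unstressed cKO and 1060 to 1372 in control libraries. In score 1 cKO over control mice, all 12 cardiomyocyte markers had a log2 fold change below 0 (median -0.12), and all 11 endothelial markers lay above 0 (median 0.42). In unstressed cKO over control mice, 7 of the 12 were below 0 and 9 of the 11 above 0. In bulk RNA, fewer cells of a type and less RNA per cell cannot be told apart. All 10 genes are protein-coding, and their positions are given on mm10 with each gene. Mdm4, Fas and Sesn1 overlap another annotated gene but share no exonic base with it. Levels are given as normalized counts, in which the reads of a gene are scaled by the size factor of its library.

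p53 binds DNA at a pair of short half-sites, and the promoters of the genes were searched for them to show where such a sequence lies. RefSeq promoters on GRCm38.p6 (mm10) hold 250 bases before to 50 bases after a start site, and 8 of the 10 genes had 11 such windows. The p53 half-site consensus, which has 10 letters and reads the same on both strands, was found in 5 of the 11 windows, each of another gene (Trp53, Mdm2, Ccng1, Gtse1 and Sesn1). Only exact matches to the consensus were counted, with no mismatched letter allowed. Of all 32851 windows, 8.36% held such a half-site and 0.0731% held a pair of them with 0 to 13 bases between. None of the 11 windows held an exact pair, and pairs with a mismatched letter were not searched for. Cdkn1a, the p53 target that encodes the cell-cycle inhibitor p21, is shown as an example of a pair of exact matches, which need not be the pair that p53 binds. The stretches printed are chr11:69580274-69580303 on the plus strand for Trp53, chr10:117710925-117710954 on the minus strand for Mdm2 and chr11:40755452-40755481 on the minus strand for Ccng1. For Gtse1 the stretch is chr15:85859945-85859974, for Sesn1 chr10:41887256-41887285 and for Cdkn1a chr17:29090896-29090947, all on the plus strand. Counted from the start base as 0, the first base of the half-site was at -75 in Trp53, -186 in Mdm2, -185 in Ccng1, 9 in Gtse1 and -173 in Sesn1. The start sites used for Ccng1, Gtse1 and Sesn1 lie inside these genes, downstream of their first base in the annotation. The exact half-sites are in capitals, and a match is a description of the letters and not of binding. In Ccng1, Gtse1 and Cdkn1a, the 10 letters directly beside a half-site differ from the consensus in a single letter. They are left in lower case.
Trp53: acccacggaaGGACTTGCCCttacttgtta
Mdm2: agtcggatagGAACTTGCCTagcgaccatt
Ccng1: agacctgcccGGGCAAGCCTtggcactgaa
Gtse1: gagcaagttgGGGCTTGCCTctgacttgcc
Sesn1: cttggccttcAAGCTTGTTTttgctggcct
Cdkn1a: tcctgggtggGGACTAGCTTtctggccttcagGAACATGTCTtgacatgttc

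Per kilobase of exon, the inhibitors of p53 had the highest levels of the 10 genes. Mdm4 had a median over the 9 libraries of 280.1 normalized counts per kb and Mdm2 of 210.8 per kb, followed by Sesn1 with 167.5 per kb. Ccng1 had a median of 83.7 and Trp53 of 78.4 normalized counts per kb. The other 5 genes were far lower, with 9.74 per kb for Fas, 5.57 for Zmat3, 3.88 for Trp53inp1, 3.12 for Gtse1 and 2.85 for Phlda3. Neighbours in this order overlapped in their ranges over the libraries, except at 2 steps. Sesn1, at 118.6 to 378.3 per kb, lay above Ccng1, at 17.1 to 109.7 per kb, and Trp53, at 50.0 to 140.7 per kb, lay above Fas, at 0 to 15.2 per kb. The 5 genes from Mdm4 to Trp53 were therefore measured with many reads, and the 5 others with few, down to 81 reads of Phlda3 in all libraries together.

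**Figure D1:**
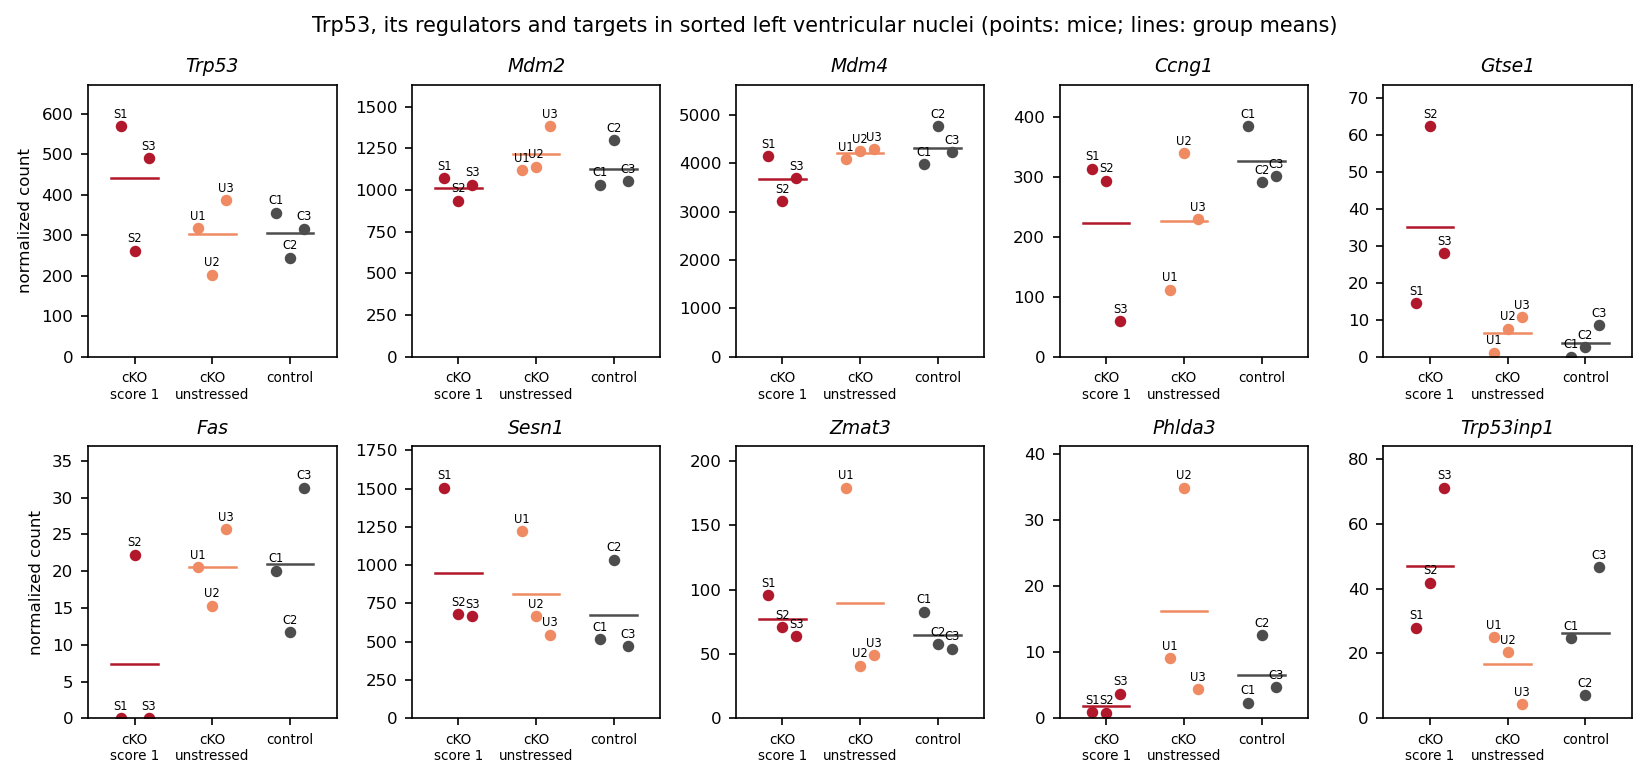
Normalized counts (y axis, linear, from 0) of the 10 genes in the 3 score 1 cKO, 3 unstressed cKO and 3 control mice (x axis), with a point for each mouse and a line at each group mean. Mdm2 and Mdm4 vary little, Gtse1 is highest in all 3 score 1 cKO mice (14.4 to 62.4), and Fas is at 0 in S1 and S3.

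No difference between groups was significant for any of the 10 genes. Of the genes in the table, 13454 passed the filter on low values (10 normalized counts or more in 3 or more libraries), and 9 of the 10 genes were among them, all but Phlda3. With limma and Benjamini-Hochberg adjustment over the 13454 genes, 0 of the 9 had an adjusted p below 0.05 in score 1 cKO against control mice, against 0% of all genes. The count was also 0 of 9 in unstressed cKO against control mice, against 0% of all genes, and in score 1 against unstressed cKO mice, against 0% of all genes. In score 1 cKO mice against the 6 other mice it was 0 of 9, against 0.00743% of all genes, which is 1 gene. DESeq2 on the recovered reads also called none of the 10 where it gave an adjusted p. It gave none for Gtse1, Fas and Phlda3 in score 1 cKO against control mice, and none for Gtse1 in unstressed cKO against control mice. DESeq2 called 0.383% of the genes in score 1 cKO against control mice and 0.11% in unstressed cKO against control mice. It called 0.253% in score 1 against unstressed cKO mice and 0.535% in score 1 cKO mice against the 6 others.

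At an unadjusted p under 0.05 in limma, Gtse1 and Fas stood out in each comparison that included the score 1 cKO mice. These were 2 of the 9 genes against control mice, where 7.67% of all genes had such a p, 2 of 9 against unstressed cKO mice, where 6.34% had, and 2 of 9 against the 6 other mice, where 8.09% had. Between unstressed cKO and control mice it was 0 of 9, with 4.17% of all genes. The groups did not overlap for Gtse1 alone among the 9 in score 1 cKO against control mice, where 11.1% of all genes did not overlap, and for Gtse1 alone against the 6 other mice, where 3.47% did not. They did not overlap for 3 of the 9 (Gtse1, Trp53inp1 and Mdm2) in score 1 against unstressed cKO mice, with 11.3% of all genes, and for 0 of 9 in unstressed cKO against control mice, with 10.5%. Gtse1 passed the filter only through the 3 score 1 cKO libraries and U3, so that its place among the genes tested rests on the group in which it was high.

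Trp53 (ENSMUSG00000059552.8, chr11:69580359-69591873, plus strand) encodes p53 itself. It had 569, 262 and 491 normalized counts in score 1 cKO mice, 317, 202 and 387 in unstressed cKO mice, and 356, 245 and 316 in control mice. S1 and S3 were the highest of the 9 libraries, S2 lay within the range of both other groups, and all groups overlapped. The level averaged 441 ± 160 in score 1 cKO mice, 302 ± 93.2 in unstressed cKO mice and 306 ± 56.1 in control mice (SD, n = 3 each). The log2 fold change of score 1 cKO over control mice was 0.47 ± 0.34 (SE), with a 95% interval of -0.24 to 1.17 and an adjusted p of 0.797 in limma. When each library was left out in turn, it ranged from 0.25 to 0.81. For score 1 over unstressed cKO mice it was 0.52 (adjusted p = 0.858), and for unstressed cKO over control mice -0.05 (adjusted p above 0.99). A pseudogene, Trp53-ps, shares 3.64% of the 50-base stretches of the Trp53 transcripts, but it had 0 to 3.75 normalized counts.

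Mdm2 (ENSMUSG00000020184.9, chr10:117688875-117710758, minus strand) is both the main inhibitor of p53 and its target. It had 1072, 936 and 1033 normalized counts in score 1 cKO mice, 1120, 1141 and 1384 in unstressed cKO mice, and 1032, 1300 and 1052 in control mice. All 3 score 1 cKO libraries lay below all 3 unstressed cKO libraries, while both groups overlapped with the control libraries. Score 1 over unstressed cKO mice had a log2 fold change of -0.26 ± 0.21 (SE, 95% interval -0.70 to 0.19, adjusted p = 0.884 in limma). It was -0.15 ± 0.21 for score 1 cKO over control mice (95% interval -0.59 to 0.29, range -0.21 to -0.04 when each library was left out) and 0.11 ± 0.21 for unstressed cKO over control mice (95% interval -0.33 to 0.55). A change of Mdm2 by 1 or more on the log2 scale thus lay outside the interval in each of these comparisons.

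Mdm4 (ENSMUSG00000054387.8, chr1:132959484-133030561, minus strand) encodes the relative of MDM2 that blocks the activity of p53. It had 4145, 3221 and 3688 normalized counts in score 1 cKO mice, 4086, 4250 and 4288 in unstressed cKO mice, and 3977, 4771 and 4226 in control mice. S2 and S3 were the lowest of the 9 libraries, and S1 lay within the range of the control and the unstressed cKO libraries. The log2 fold change of score 1 cKO over control mice was -0.23 ± 0.18 (SE), with a 95% interval of -0.61 to 0.14 and an adjusted p of 0.801 in limma, and a range of -0.32 to -0.14 when each library was left out. For unstressed cKO over control mice it was -0.04, with an interval of -0.42 to 0.34. The pseudogene Mdm4-ps shares 7.30% of the 50-base stretches of Mdm4 and had 51.4 to 80.7 normalized counts.

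Mdm4 and Mdm2 were also the steadiest of the genes. The SD of log2(normalized count + 1) within groups was 0.13 for Mdm4 and 0.16 for Mdm2, against a median of 0.61 over all genes tested. For Trp53 it was 0.47, for Sesn1 0.63, for Zmat3 0.71 and for Ccng1 0.91. It was largest in the genes with few reads, at 1.10 for Trp53inp1, 1.34 for Gtse1 and 1.58 for Fas, where counting error adds to the spread between mice.

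**Figure D2:**
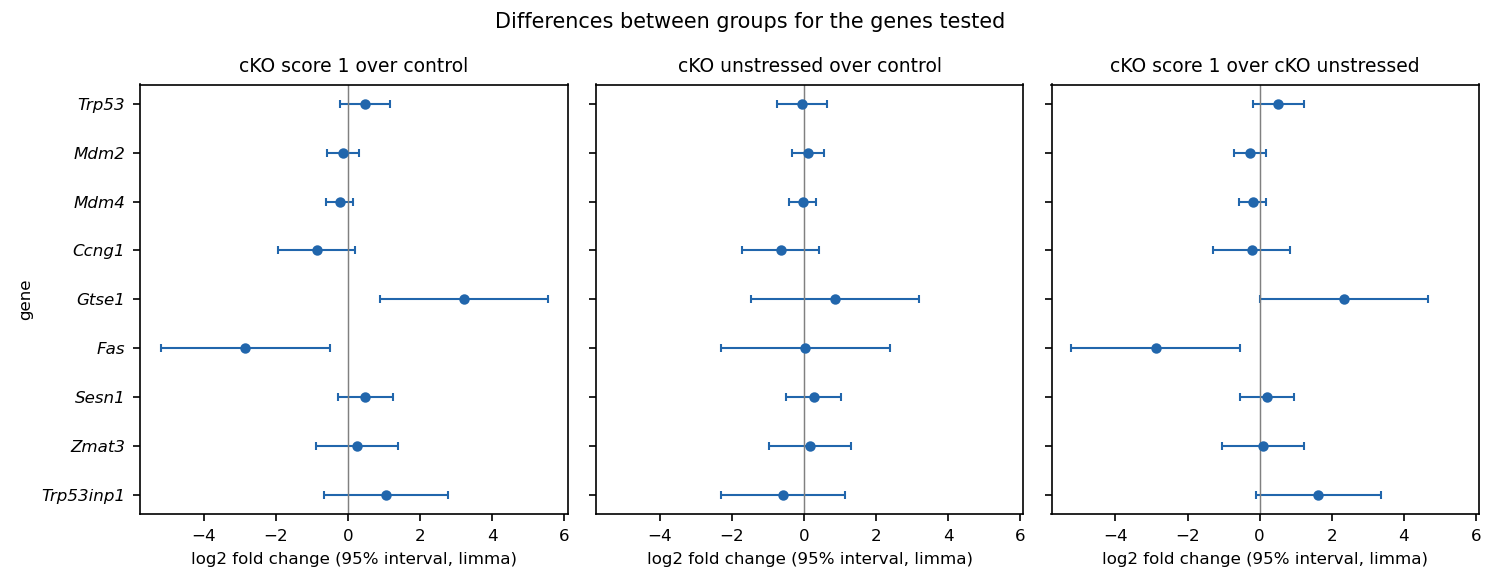
Log2 fold change (x axis) of the 9 genes tested (y axis) in the 3 comparisons of groups, with bars for the 95% interval from limma. The intervals of Mdm2 and Mdm4 are narrow and include 0, and only those of Gtse1 and Fas leave 0 out before adjustment for the number of genes, both in score 1 cKO over control and over unstressed cKO mice.

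Gtse1 (ENSMUSG00000022385.10, chr15:85859745-85876573, plus strand) is a p53 target that is expressed in the G2 and S phases of the cell cycle, and its protein is known to hold p53 down during G2. It had 14.4, 62.4 and 28.1 normalized counts in score 1 cKO mice, 1.14, 7.65 and 10.6 in unstressed cKO mice, and 0, 2.69 and 8.55 in control mice. Every score 1 cKO library lay above every other library, with S2 the highest. The level averaged 35.0 ± 24.7 in score 1 cKO mice, 6.48 ± 4.86 in unstressed cKO mice and 3.75 ± 4.37 in control mice (SD, n = 3 each). In limma, the log2 fold change of score 1 cKO over control mice was 3.22 ± 1.11 (SE), with an unadjusted p of 0.0093 and an adjusted p of 0.553. With DESeq2 the log2 fold change was 3.20, with an unadjusted p of 0.0036 and no adjusted p because of the low count. Over unstressed cKO mice it was 2.35 ± 1.11 in limma (adjusted p = 0.779), and over the 6 other mice 2.78 ± 0.95 (adjusted p = 0.456 in limma and 0.129 in DESeq2). By series of mouse numbers, S1 and S2 had 14.4 and 62.4 against 0 in C1, and S3 had 28.1 against 2.69 in C2 and 8.55 in C3. This order follows from the lack of overlap given above and is not a further result. When each library was left out in turn, the log2 fold change over control mice ranged from 2.36 to 3.99.

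The summed level of transcripts of the G2 and M phases was also highest in score 1 cKO mice. A list of 26 such genes, with Gtse1 among them, summed to 1873 to 2461 normalized counts in score 1 cKO libraries, 1083 to 1510 in unstressed cKO libraries and 796 to 1496 in control libraries, and every score 1 cKO library stood above both other groups. This separation rested on Mki67, since leaving it out alone placed S3 below U1, whereas leaving out Anln alone kept the separation. The 24 genes without both summed to 1100, 1418 and 711 in score 1 cKO libraries, 905, 604 and 768 in unstressed cKO libraries, and 534, 795 and 664 in control libraries, with S3 below U1, U3 and C2. The sums without these genes were added after the values were seen. Of the 26 genes, 24 were tested, of which 0 passed the adjusted threshold in limma, 5 higher and 0 lower had p under 0.05 before adjustment, where 7.67% of all genes had, and the median log2 fold change of score 1 cKO over control mice was 0.74, against -0.01 over all genes. Gtse1 was among those higher, and it passed the filter only through the score 1 cKO libraries and U3. In unstressed cKO against control mice 3 were higher and 0 lower before adjustment, where 4.17% of all genes were past that p, and in score 1 over unstressed cKO mice 14 values were above 0 and 10 below. Bub1, a kinase of the spindle checkpoint, had 9.02, 15.4 and 2.81 normalized counts in score 1 cKO mice, 20.5, 16.2 and 46.1 in unstressed cKO mice, and 0, 3.59 and 1.90 in control mice, so that it was highest in the unstressed cKO mice. Bub1 was among the genes higher in unstressed cKO against control mice, and it passed the filter only through the unstressed cKO libraries and S2. Anln, which encodes a protein of the cleavage furrow, had 655, 229 and 218 normalized counts in score 1 cKO mice, 92.4, 94.4 and 77.2 in unstressed cKO mice, and 112, 87.9 and 48.5 in control mice. It passed with DESeq2 (adjusted p = 0.0061) but not with limma (adjusted p = 0.299). Mki67, the gene of the proliferation marker Ki-67, had 666, 814 and 944 normalized counts in score 1 cKO mice, 512, 385 and 460 in unstressed cKO mice, and 150, 613 and 293 in control mice (adjusted p = 0.474 in limma). The endothelial markers given above also summed higher in every score 1 cKO library than in every control library, and their part in the level of Gtse1 was not tested. These are RNA levels. By the study's account, staining for Ki-67 protein in hearts fixed at 12 days showed no significant difference between cKO and control mice.

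**Figure D3:**
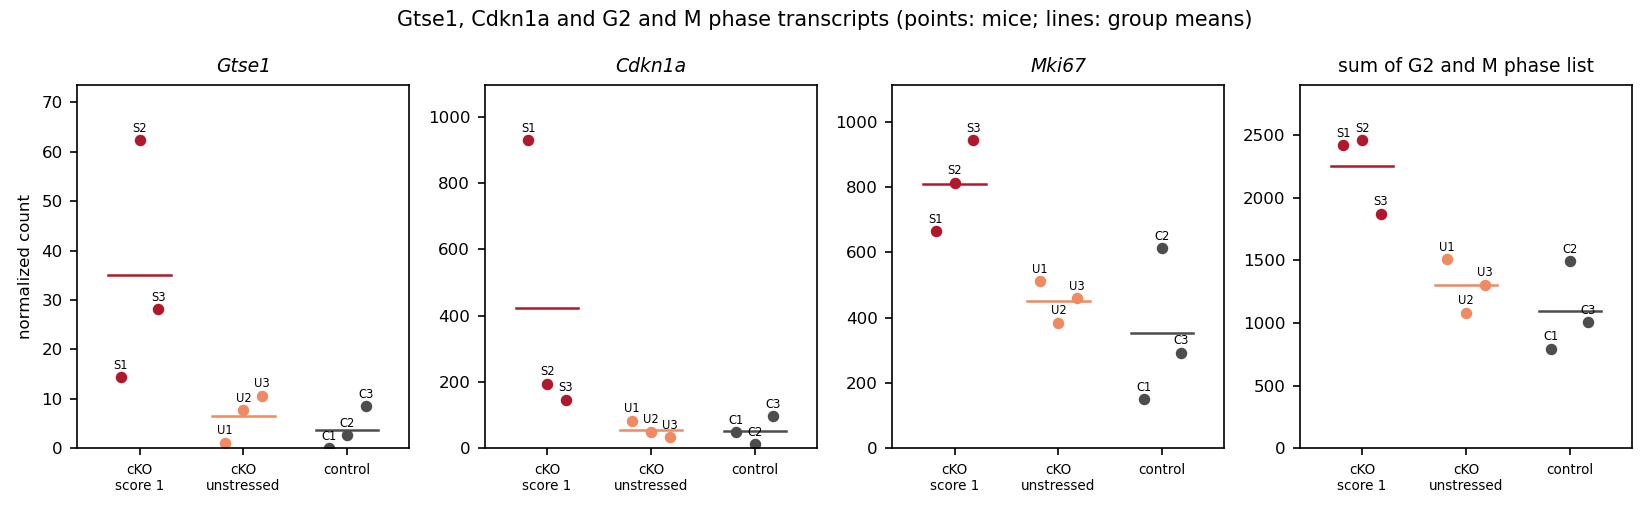
Normalized counts (y axis, linear, from 0) of Gtse1, Cdkn1a and Mki67 and the sum of the G2 and M phase list in each mouse, with a line at each group mean. In all 4 panels the 3 score 1 cKO mice lie above the 6 others, which for the sum rests on Mki67, and in Cdkn1a the group mean rests largely on S1 (929).

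Ccng1 (ENSMUSG00000020326.7, chr11:40748552-40755311, minus strand), which encodes cyclin G1, is a p53 target whose protein acts on MDM2. It had 314, 294 and 59.9 normalized counts in score 1 cKO mice, 112, 340 and 230 in unstressed cKO mice, and 385, 292 and 301 in control mice. S3 and U1 were far below the 7 other libraries, which held 230 to 385, and the groups overlapped. For score 1 cKO over control mice the log2 fold change was -0.86 ± 0.51 (SE, adjusted p = 0.741 in limma), and without S3 it was -0.09. Over unstressed cKO mice it was -0.22, but it was 0.56 without S3, 0.14 without U2 and 0.23 with the series of mouse numbers as a covariate, so that its direction was not stable.

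Fas (ENSMUSG00000024778.7, chr19:34290666-34327772, plus strand) encodes a death receptor on the cell surface that starts apoptosis. It had 0, 22.2 and 0 normalized counts in score 1 cKO mice, 20.5, 15.3 and 25.7 in unstressed cKO mice, and 20.1, 11.7 and 31.4 in control mice. No read was found in S1 and S3, which allows a level of up to 2.71 and 2.81 (3 reads, counting error only), while S2 lay within the range of the 6 other mice. The log2 fold change was -2.85 ± 1.12 (SE) for score 1 cKO over control mice (unadjusted p = 0.020, adjusted p = 0.580 in limma) and -2.89 ± 1.12 for score 1 over unstressed cKO mice (adjusted p = 0.750). With DESeq2 it was -1.50 over control mice (unadjusted p = 0.295). In limma the value over control mice was -4.36 without S2 and -2.09 without S1 or without S3, and it was -3.49 with a pseudocount of 0.5 and -1.49 with one of 5. S2, the score 1 cKO library with reads of Fas, was also that with the most Gtse1 and with more mitochondrial ribosomal RNA. One library without reads was in each series of mouse numbers. The 8 leukocyte markers, a cell type that also carries Fas, summed to 181 to 204 in score 1 cKO, 188 to 232 in unstressed cKO and 172 to 337 in control libraries, which overlapped. Of the 4 that were tested, 3 had a log2 fold change below 0 in score 1 cKO against control mice, with a median of -0.59, and the median was -0.53 against unstressed cKO mice. Cd68, a macrophage marker, had 49.6, 16.2 and 44.0 normalized counts in score 1 cKO mice, 74.2, 122 and 89.6 in unstressed cKO mice, and 138, 62.8 and 82.7 in control mice, with score 1 cKO below the 6 others. Of all genes, 3.47% did not overlap between score 1 cKO mice and the 6 others. The other leukocyte markers overlapped there, and those tested differed in sign. Mrc1 had 81.2, 88.9 and 59.0 in score 1 cKO mice against 75.6, 56.5 and 43.7 in control mice, with a log2 fold change of 0.39. Ptprc and Csf1r overlapped between the groups, with log2 fold changes of -0.67 and -0.52 over control mice. Ptprc had 6.31, 41.0 and 6.56 in score 1 cKO mice, 39.9, 16.2 and 13.3 in unstressed cKO mice, and 59.1, 15.3 and 8.55 in control mice. Of the markers not tested, Cd74 had 0, 0 and 1.87 in score 1 cKO mice, 11.4, 8.50 and 0.887 in unstressed cKO mice, and 9.45, 2.69 and 0 in control mice. Itgam was highest in S2 and Cd3e in S1. Cd79a, of B cells, was at 0 in all libraries but U2. The part of these cells in the level of Fas was not tested.

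Sesn1 (ENSMUSG00000038332.7, chr10:41809935-41908424, plus strand) encodes sestrin 1, which restrains mTORC1 signalling and oxidative stress. It had 1507, 681 and 667 normalized counts in score 1 cKO mice, 1221, 666 and 547 in unstressed cKO mice, and 519, 1035 and 472 in control mice. A single library stood above the 2 others in each group (S1, U1 and C2), and the groups overlapped. Score 1 cKO over control mice gave a log2 fold change of 0.48 ± 0.36 (SE, 95% interval -0.28 to 1.23, adjusted p = 0.798 in limma), and it ranged from 0.09 to 0.83 when each library was left out in turn.

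Zmat3 (ENSMUSG00000027663.7, chr3:32334792-32366014, minus strand) encodes an RNA-binding protein that is induced by p53. It had 95.6, 70.9 and 63.7 normalized counts in score 1 cKO mice, 179, 40.8 and 48.8 in unstressed cKO mice, and 82.7, 57.4 and 54.2 in control mice. U1 was by far the highest library, and the others overlapped. The log2 fold change was 0.25 ± 0.54 (SE) for score 1 cKO over control mice and 0.16 ± 0.54 for unstressed cKO over control mice, with adjusted p of 0.952 and above 0.99 in limma. Without U1 the second value was -0.50.

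Trp53inp1 (ENSMUSG00000028211.6, chr4:11156431-11174379, plus strand) encodes a stress protein that takes part in autophagy and in p53-dependent cell death. It had 28.0, 41.9 and 71.2 normalized counts in score 1 cKO mice, 25.1, 20.4 and 4.44 in unstressed cKO mice, and 24.8, 7.18 and 46.6 in control mice. The score 1 cKO libraries lay above all unstressed cKO libraries but overlapped with the control libraries through C3. For score 1 over unstressed cKO mice the log2 fold change was 1.63 ± 0.82 (SE, 95% interval -0.10 to 3.35, adjusted p = 0.793 in limma) and 1.05 ± 0.82 for score 1 cKO over control mice (adjusted p = 0.803). The value over unstressed cKO mice was 0.92 without U3, and that over control mice was 0.35 without C2 and 1.62 without C3.

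Phlda3 (ENSMUSG00000041801.5, chr1:135766119-135769136, plus strand) encodes an inhibitor of the kinase AKT that is induced by p53. It had 0.902, 0.855 and 3.75 normalized counts in score 1 cKO mice, 9.13, 34.9 and 4.44 in unstressed cKO mice, and 2.36, 12.6 and 4.75 in control mice. These were 1, 1 and 4 reads in score 1 cKO mice, 8, 41 and 5 in unstressed cKO mice, and 2, 14 and 5 in control mice. The score 1 cKO libraries lay below all unstressed cKO libraries and overlapped with the control libraries. Only 2 libraries reached 10 normalized counts, so that Phlda3 was not tested in limma, and DESeq2 gave an adjusted p of 0.511 for score 1 over unstressed cKO mice.

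In score 1 cKO over control mice, the values of the 7 targets other than the inhibitors had no common sign. In limma they were above 0 for Gtse1, Trp53inp1, Sesn1 and Zmat3 and below 0 for Fas and Ccng1, and for Phlda3 DESeq2 gave -1.85 (unadjusted p = 0.296). None of these differences was called, and the intervals of Trp53inp1, Sesn1, Zmat3 and Ccng1 included 0, so that the signs are a description.

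The wider p53 pathway was followed through lists of known genes. Of 71 p53 targets in the table, 56 were tested in score 1 cKO against control mice. None passed the adjusted threshold in limma. Before adjustment, p was under 0.05 for 8 that were higher and 3 that were lower, where 7.67% of all genes had such a p, and the median log2 fold change was 0.00, against -0.01 over all 13454 genes. The 8 include Gtse1, which passed the filter only through the score 1 cKO libraries and U3, and Cdc25c, which passed only through cKO libraries. In unstressed cKO against control mice none passed, 4 higher and 1 lower had p under 0.05 before adjustment, where 4.17% of all genes had, and the median was -0.06, against 0.01 over all genes. Cdc25c was also among the 4 that were higher in unstressed cKO mice. DESeq2 called 0 of the targets in both of these comparisons.

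The list of targets linked to cell-cycle arrest had the highest median of these lists. In score 1 cKO against control mice, 5 of 10 tested (Cdkn1a, Gtse1, Cdc25c, Btg2 and Plk2) were higher at an unadjusted p under 0.05 and 0 lower, where 7.67% of all genes had such a p. Of these, Cdc25c drives entry into mitosis and is repressed by p53, and Gtse1 passed the filter through the score 1 cKO libraries and U3. Cdc25c passed it only through cKO libraries, since no control library reached 10 normalized counts. The median log2 fold change was 1.06, against 0.15 in unstressed cKO against control mice. Cdkn1a had 929, 195 and 147 normalized counts in score 1 cKO mice, 83.3, 50.2 and 33.7 in unstressed cKO mice, and 49.6, 13.5 and 97.9 in control mice. All 3 score 1 cKO libraries lay above the 6 others, where 3.47% of all genes did not overlap, with S1 far above S2 and S3. Over control mice its log2 fold change was 2.85 ± 0.69 (SE), with an adjusted p of 0.342 in limma and 0.253 in DESeq2. Over unstressed cKO mice it was 2.50 ± 0.69 (adjusted p = 0.645) in limma, whereas DESeq2 called Cdkn1a higher (adjusted p = 0.000836). Btg2, an antiproliferative gene, had 44.2, 82.1 and 70.2 normalized counts in score 1 cKO mice, 33.1, 35.7 and 24.0 in unstressed cKO mice, and 10.6, 23.3 and 51.3 in control mice, and overlapped with the control mice through C3. Cdc25c, a phosphatase, had 37.0, 13.7 and 15.9 in score 1 cKO mice, 93.6, 5.10 and 17.7 in unstressed cKO mice, and 2.36, 9.87 and 0 in control mice.

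The targets for apoptosis had a median of -0.16 in score 1 cKO against control mice, with 2 of 13 higher and 1, Fas, lower at an unadjusted p under 0.05. Of all genes, 7.67% had such a p in either direction. Pidd1, which encodes a death domain protein of the PIDDosome, had 133, 184 and 135 normalized counts in score 1 cKO mice, 144, 150 and 102 in unstressed cKO mice, and 83.9, 61.0 and 57.0 in control mice. Both groups of cKO mice lay above all control mice for Pidd1, with a log2 fold change of 1.15 ± 0.39 (SE, adjusted p = 0.545 in limma) for score 1 cKO and 0.96 ± 0.39 for unstressed cKO mice (adjusted p above 0.99). These comparisons share the control mice, and 11.1% and 10.5% of all genes did not overlap in them. Bax, which encodes a protein that opens the outer mitochondrial membrane, had 67.7, 95.7 and 21.5 in score 1 cKO mice, 121, 52.7 and 100.3 in unstressed cKO mice, and 130.0, 60.1 and 121.6 in control mice, and the groups overlapped.

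The targets for DNA repair and nucleotide supply had a log2 fold change below 0 for all 7 tested in score 1 cKO against control mice, with a median of -0.30, against -0.01 over all genes. At an unadjusted p under 0.05, 1 of the 7, Rrm2b, was lower and 0 were higher, where 7.67% of all genes had such a p. In unstressed cKO against control mice 5 of 7 were below 0, with a median of -0.14, against 0.01 over all genes. Rrm2b, the p53-induced subunit of ribonucleotide reductase, had 19.8, 19.7 and 23.4 normalized counts in score 1 cKO mice, 45.7, 38.3 and 28.4 in unstressed cKO mice, and 81.5, 44.0 and 47.5 in control mice. The score 1 cKO libraries lay below the 6 others, where 3.47% of all genes did not overlap. The log2 fold change of Rrm2b over control mice was -1.37 ± 0.58 (SE, adjusted p = 0.620 in limma). The targets for metabolism, oxidative stress and autophagy had a median of 0.03, and of 13 tested 1 was lower and 0 higher at p under 0.05 before adjustment, where 7.67% of all genes had such a p. That gene was Dram1, which encodes a lysosomal protein of autophagy, with 78.5, 70.1 and 116 normalized counts in score 1 cKO mice, 87.9, 35.7 and 45.3 in unstressed cKO mice, and 128, 160 and 233 in control mice. Both groups of cKO mice lay below the control mice for Dram1. Of all genes, 11.1% did not overlap between score 1 cKO and control mice, and 10.5% between unstressed cKO and control mice.

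The genes that act on p53 had medians near that of all genes. The ubiquitin ligases and other genes for its stability had a median of 0.05 in score 1 cKO against control mice, with 1 of 12 higher at an unadjusted p under 0.05, which was Gtse1. The kinases, phosphatases and acetylases of p53 had a median of 0.03, with 1 of 15 higher, which was Hipk2. Both counts were near the share of all genes with such a p, which was 7.67%. Hipk2, a kinase that phosphorylates p53, had 2944, 2115 and 2552 normalized counts in score 1 cKO mice, 2869, 1952 and 1732 in unstressed cKO mice, and 1516, 1837 and 2046 in control mice (adjusted p = 0.642 in limma). Atr, a kinase of the DNA damage response, had 799, 691 and 687 in score 1 cKO mice, 307, 497 and 367 in unstressed cKO mice, and 493, 790 and 543 in control mice. Score 1 lay above unstressed cKO mice without overlap, where 11.3% of all genes did not overlap.

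**Figure D4:**
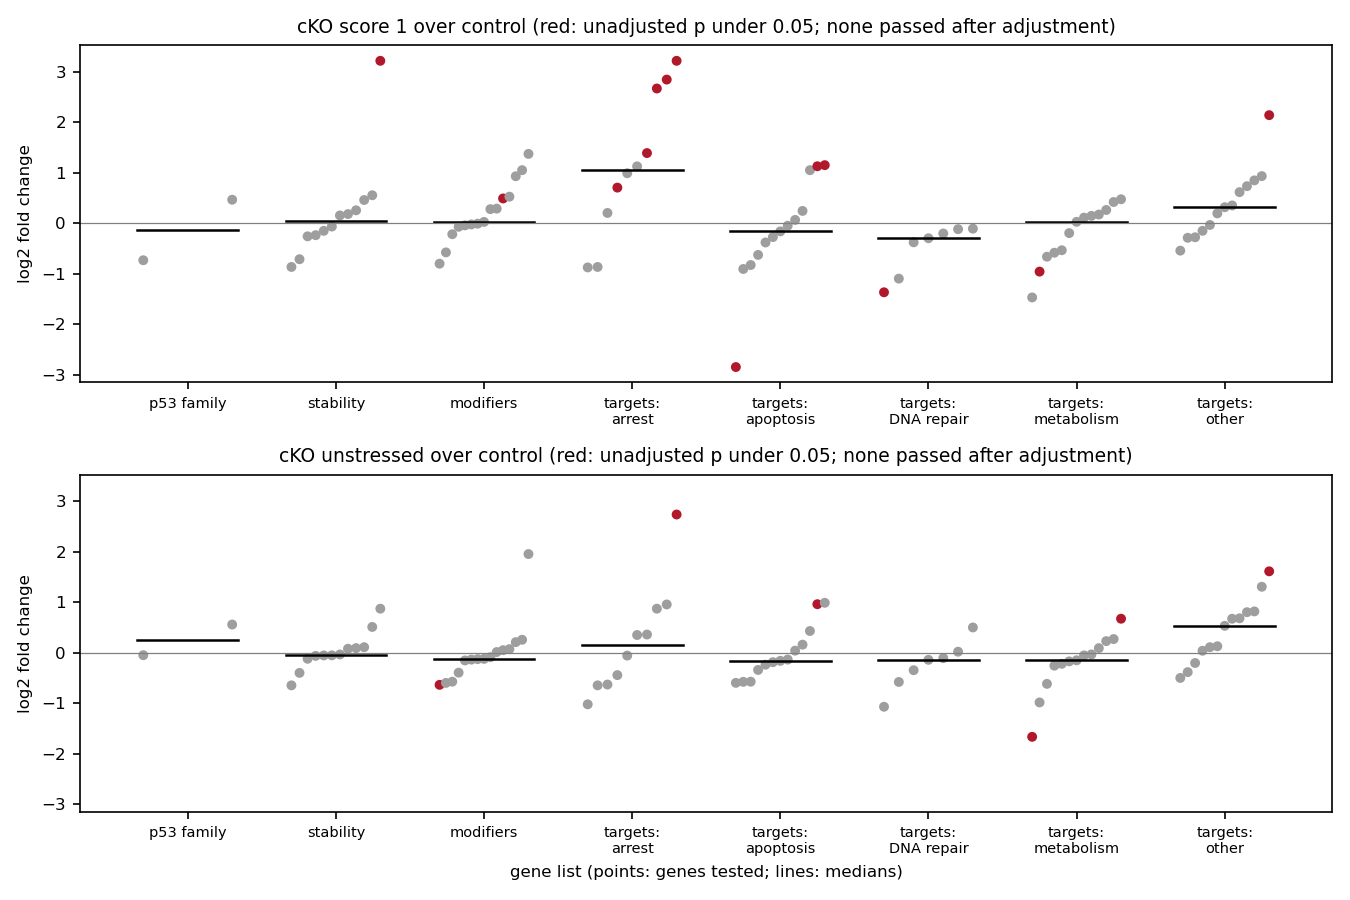
Log2 fold change (y axis) of each gene tested in 8 lists of p53 genes (x axis) for score 1 cKO over control mice (top) and unstressed cKO over control mice (bottom), with a line at each list median and red points for an unadjusted p under 0.05 in limma. The cell-cycle arrest targets have the highest median in the top panel (1.06), and no gene passed the adjusted threshold.

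The genes most like Trp53 and Mdm2 across the 9 libraries were taken by Pearson's r of log2(normalized count + 1), as a description without a test. For Trp53 these were Med15 (r = 0.94), Snx24 (r = 0.94) and Hvcn1 (r = 0.90). Like Trp53, Hvcn1 was highest in S3 and S1, with 45.9 and 45.1 normalized counts, and Snx24 was highest in S1, with 114.6. For Mdm2 they were Psmb1 (r = 0.94), Aldoa (r = 0.92) and Golga2 (r = 0.91), which like Mdm2 were highest in U3. The 9 points share their libraries and size factors, and the values were picked as the highest of 13454.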

How the data were processed

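The authors deposited normalized counts, a signal made by mapping 50 bp single reads to mm10 with STAR and dividing the reads of each gene by a DESeq2 size factor. The sources used here name no versions, no annotation and no strand setting. The deposited columns of the authors' own comparisons were not used. Divided by the smallest value above 0 of its library, 100% of the values came out whole (tolerance 0.001), which gave back the reads. Positions, exonic lengths and missing symbols came from GENCODE M21. Values were set to log2(normalized count + 1), filtered at 10 in 3 libraries and tested with limma 3.58.1 (R 4.3.3) with a mean-variance trend, as a two-sided test, at an adjusted p of 0.05, with the 3 groups in 1 fit or, against the 6 other mice, in 2 groups. DESeq2 1.42.0 and edgeR 4.0.16 on the recovered reads were alternatives. The labels name a different mouse for every library, and p-values measure the spread between these libraries. All 10 genes were named, of each list up to 4 genes with the smallest p, and for Trp53 and Mdm2 the 3 genes with the highest r. Plk2, Cd68, Mrc1, Ptprc, Csf1r, Cd74, Itgam, Cd3e and Cd79a were named after their values were seen. The genes and lists were chosen with earlier results of these data known. The sign and size of the limma fold changes were checked on simulated data, with no requirement set on missed or false calls.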

Additional observations from a re-analysis of the deposited data

How the results depend on the processing

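None of the 9 genes tested had an adjusted p under 0.05 in any of 4 comparisons under any alternative, with 624 adjusted p-values and 3 that DESeq2 did not give. The lowest was 0.129, for Gtse1 in DESeq2. The direction was kept in 597 of 627 fold changes and differed in 30, all in uncalled differences of Ccng1, Fas, Mdm4, Sesn1, Trp53, Trp53inp1 and Zmat3. The counts over all genes moved more. In score 1 cKO against control mice, 0 genes passed in limma and edgeR, 40 with DESeq2, 1 with only the groups compared, and 0 to 3 when each library was left out, with 3 without C1. In unstressed cKO against control mice, 0 passed in limma and edgeR, 14 with DESeq2, 3 with a pseudocount of 5, 3 after quantile normalization, 4 with the series of mouse numbers as a covariate, 4 with only the groups compared, and 0 to 4 when each library was left out, with 4 without S2 or S3. In score 1 against unstressed cKO mice, 0 passed in limma and edgeR, 35 with DESeq2 and 0 to 5 when each library was left out, with 5 without S3. Against the 6 other mice, 1 passed in limma and edgeR, 75 with DESeq2, 0 with a pseudocount of 0.5, 2 with a pseudocount of 5, 0 without a filter, 0 after quantile normalization, 4 with the covariate, and 0 to 3 when each library was left out. The cause of these differences was not tested. No paired analysis was possible because the labels give no replicate numbers that the groups share. With 3 mice per group, the 95% intervals of Gtse1, Fas and Trp53inp1 spanned more than 3 units on the log2 scale, and their 153, 154 and 285 reads in all limit what can be said of them.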
